A study of Mus musculus with 12 samples.

Results

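Iris arrays of mice were compared here by their content of lens messenger RNA. Within the C57BL/6J and B6-Lystbg-J strains, arrays were split by the log2 value of Cryaa, which encodes the lens chaperone alpha A-crystallin. An array at 12 or above was called Cryaa-high and one below 12 Cryaa-low. The rule covered 6 of the 12 arrays of the series. The 3 Cryaa-high arrays were C57BL/6J replicate 2 and B6-Lystbg-J replicates 1 and 3, and the 3 Cryaa-low arrays were C57BL/6J replicates 1 and 3 and B6-Lystbg-J replicate 2.

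Each array measured RNA of adult iris from mice 60 days old, and 1 sample was the pooled irides of the 4 eyes of 2 animals. C57BL/6J was the strain without a listed mutation, B6-Lystbg-J carried a mutation in Lyst, a regulator of lysosome traffic, and each strain had 3 arrays. The 6 arrays that the rule did not use were 3 of B6-(Cg)TyrC-2J, whose Tyr gene is mutated, and 3 of B6.D2(Tryp1-Gpnmb-)/SJ, with mutations in Tyrp1 (Tryp1 in the labels) and Gpnmb. All animals were called healthy, and no treatment was named. The labels call the samples of a strain biological replicates, so their spread holds animals, dissection and array together, and the number of arrays limits the precision.

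The lens lies directly behind the iris. A single layer of epithelial cells covers its front, and cells at its equator elongate into fibre cells that fill with crystallins, couple through gap junctions, build beaded filaments and finally destroy their nuclei. Alpha-crystallins are chaperones found in epithelium and fibres, beta- and gamma-crystallins are structural proteins most abundant in fibres, and a thick basement membrane of type IV collagen, laminin and nidogen, the capsule, encloses the organ.

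Promoters are shown for 5 crystallin genes whose transcripts set the groups apart, first the alpha- and beta-crystallins and then a pair of gamma-crystallins whose promoters share a long stretch. Each is the 120 bases before a start given for the gene in RefSeq on GRCm38.p6, written 5′ to 3′ along the gene's strand. Where a gene had several entries, the last by position was used. For Crybb1 the window lies inside the gene's full span, which begins at 112254563. In the first 3, capitals mark TGCTGA, the core of the element bound by large Maf factors, and TATAAA, a form of the TATA box, searched on both strands. Other forms, such as the TATATA within the Cryaa window, were not searched and are not marked.
Cryaa, chr17:31677811-31677930, + strand: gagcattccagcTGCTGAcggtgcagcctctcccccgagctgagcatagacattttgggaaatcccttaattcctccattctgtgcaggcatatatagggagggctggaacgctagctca
Cryba1, chr11:77725294-77725413, - strand: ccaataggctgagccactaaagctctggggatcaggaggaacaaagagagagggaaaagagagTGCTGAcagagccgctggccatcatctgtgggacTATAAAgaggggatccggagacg
Crybb1, chr5:112255700-112255819, + strand: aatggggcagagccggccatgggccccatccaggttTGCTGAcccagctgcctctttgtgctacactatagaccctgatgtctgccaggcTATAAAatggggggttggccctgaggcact
In the gamma-crystallin pair, capitals mark the longest stretch that both promoters share, 45 bases next to the start.
Crygd, chr1:65063441-65063560, - strand: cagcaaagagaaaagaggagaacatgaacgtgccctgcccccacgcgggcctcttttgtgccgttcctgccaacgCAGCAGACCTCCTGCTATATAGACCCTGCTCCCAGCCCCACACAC
Crygf, chr1:65926402-65926521, + strand: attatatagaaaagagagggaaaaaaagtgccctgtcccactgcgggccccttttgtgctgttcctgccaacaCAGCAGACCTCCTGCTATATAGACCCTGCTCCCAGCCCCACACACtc

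Of the 16 crystallin genes of the alpha, beta and gamma families on the lists, 15 matched a promoter entry. A single entry was used for each gene, so the counts depend on that choice of start. The windows of Crybb1, Cryba2, Cryba4 and Crybb3 lay inside the full span of the gene. TGCTGA stood in 5 of the 15 (33.3%), against 8.18% of 32851 promoter windows of the same length, and TATAAA in 3 (20%), against 6.34%. The 2 motifs did not overlap in these windows. The stretch of 45 bases stood in 2 of the 32851 windows, those of Crygd and Crygf. Its first 33 bases stood in 3 windows, the third being that of Cryge, which ended with them. The longest stretch shared by Crygd and Cryge was longer, 56 bases. A match of letters is a description and not evidence of binding.

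Values of Cryaa on the Cryaa-high arrays were 12.61 for C57BL/6J replicate 2, and 13.42 and 13.22 for B6-Lystbg-J replicates 1 and 3. On the Cryaa-low arrays they were 11.46 and 9.39 for C57BL/6J replicates 1 and 3, and 8.50 for B6-Lystbg-J replicate 2. The arrays next to the threshold were thus both C57BL/6J, at 12.61 and 11.46, and the difference was 2.18 within C57BL/6J against 4.82 within B6-Lystbg-J. These values chose the groups and are given without a test, as are all differences between the groups below. The 6 arrays outside the rule lay between 12.95 and 14.22, above the threshold.

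All values are log2 expression values as deposited. A difference is the mean of the within-strain differences, Cryaa-high minus Cryaa-low, so a difference of 1 is a doubling, and its standard error (SE) comes from the residuals of the 6 arrays. Where a mean lay below 5.65, the lower limit set for testing, the fold is written as “at least”, computed at that limit, which is not a measured background. In lists of 6 values, the Cryaa-high arrays come first in the order C57BL/6J replicate 2, B6-Lystbg-J replicates 1 and 3, followed by the Cryaa-low arrays in the order C57BL/6J replicates 1 and 3, B6-Lystbg-J replicate 2.

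Array medians were nearly level, between 6.05 and 6.14 on all 12 arrays. Pigment cell genes, 14 tested, had mean values of 11.47 to 11.79 on Cryaa-high, 11.38 to 12.23 on Cryaa-low and 11.44 to 12.10 on the other arrays, so the labelled tissue was represented in each. C57BL/6J replicate 1, a Cryaa-low array, had a Krt12 value of 12.86 against 5.96 to 6.66 on the other 5 arrays of the rule. C57BL/6J replicate 3, also Cryaa-low, had the widest gap between 3′ and 5′ actin control probe sets, 4.30 against 1.84 to 2.72 on the other 5. Poly-A spike-in controls averaged 7.36 to 8.16 on the C57BL/6J arrays and 4.94 to 5.95 on the B6-Lystbg-J arrays. In whole-tissue RNA, fewer cells of a type and less RNA per cell cannot be told apart.

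Lens transcripts other than Cryaa were higher on the Cryaa-high arrays across most functional groups. Of 78 further genes on 9 lens lists, 70 had a probe set of their own and 68 passed the filter on low values. Of these, 28 were at least 1 higher, beside 0.834% of the 13190 genes tested, and 0 were at least 1 lower, beside 0.0152%. The median difference was 0.81, against -0.03 over all genes tested, and 59 members were higher and 9 lower. All 3 Cryaa-high arrays lay above all 3 Cryaa-low arrays for 38 members, beside 4.34% of all genes, and below them for 1 member, Tmod1, beside 3.8%. Within both strains, every Cryaa-high array lay above every Cryaa-low array for 41 members, beside 8.2% of all genes, and below for 2, beside 10.4%. The same arrays chose the split, so these counts describe it and do not test it.

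**Figure D1:**
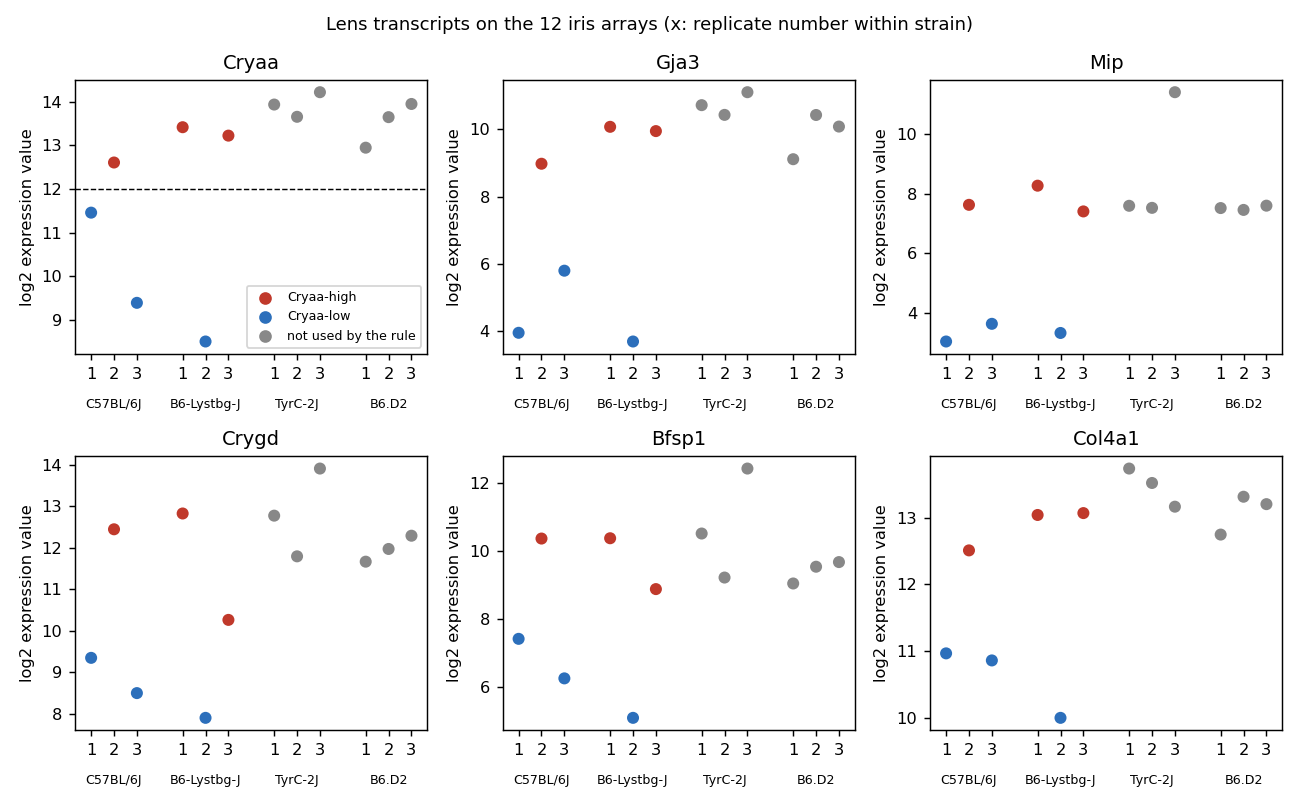
Log2 expression values (y) of 6 lens genes on the 12 iris arrays (x: replicate number within each of 4 strains; TyrC-2J and B6.D2 are short for B6-(Cg)TyrC-2J and B6.D2(Tryp1-Gpnmb-)/SJ); each point is 1 array, and the dashed line in the Cryaa panel is the threshold of 12. The 3 Cryaa-low arrays lie below the other 9 arrays in every panel, and for Mip replicate 3 of B6-(Cg)TyrC-2J lies apart at 11.40.

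Beta-crystallins, structural proteins of the fibre cell, were higher for 6 of 6 tested members, with a median difference of 3.25 and a range of 2.46 to 3.52. Cryba4 was measured at 10.50, 11.45 and 10.16 on the Cryaa-high arrays and 8.34, 7.15 and 6.53 on the Cryaa-low arrays, a difference of 3.52 (SE 0.76), or 11.4-fold. Cryba1, with the smallest difference of the 6, read 13.18, 13.44 and 13.25 against 12.23, 11.18 and 9.90, a difference of 2.46 (SE 0.68). In both genes the groups did not overlap, and B6-Lystbg-J replicate 2 was lowest. Crybb2 differed by 3.45, Cryba2 by 3.35, Crybb1 by 3.15 and Crybb3 by 3.12. Each of the 6 differed more within B6-Lystbg-J (median 4.06) than within C57BL/6J (median 2.38), as Cryaa did.

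Gamma-crystallins, the compact proteins of the lens core and cortex, were also higher for 6 of 6 tested members, with a median of 2.95. Crygd read 12.45, 12.83 and 10.27 on the Cryaa-high arrays and 9.35, 8.50 and 7.91 on the Cryaa-low arrays, a difference of 3.58 (SE 0.96), or 11.97-fold. Crygs, the gamma-crystallin of the outer fibres, read 13.12, 13.49 and 13.40 against 11.44, 10.90 and 9.51, a difference of 2.94 (SE 0.61). The groups did not overlap in either gene, but B6-Lystbg-J replicate 3 was lower than the other Cryaa-high arrays for Crygd and level with them for Crygs. Crygb differed by 3.40, Crygf by 2.97, Cryga by 2.56 and Crygn by 1.38. For Cryga the Cryaa-low mean was below 5.65 and the fold at least 3.72. The probe set of Crygf is of a kind that can cross-hybridise with related sequences, and Crygc and Cryge, near copies of the other gamma genes, had no probe set of their own here, so single gamma-crystallins may not be fully separated.

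Alpha B-crystallin, Cryab, a small heat shock protein that other tissues make as well, was 0.89 higher (SE 0.15), with values of 13.40, 13.52 and 13.50 against 12.83, 12.64 and 12.40. Those groups did not overlap. A second, dimmer Cryab probe set differed by 2.04 (SE 0.95), or 4.11-fold, also without overlap (11.74, 13.06 and 12.40 against 11.53, 9.13 and 10.07), so the probe sets of this gene disagree in size. Of 5 enzymes related to crystallins, only Aldh1a1, a retinaldehyde dehydrogenase, was at least 1 higher, by 1.18 (SE 0.09; 12.44, 12.81 and 12.74 against 11.24, 11.45 and 11.52). Cryz, Cryzl1, Cryl1 and Crym differed by -0.27 to 0.07.

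Fibre membrane proteins had 3 of 10 tested members at least 1 higher. Gja3, a connexin of lens gap junctions, was measured at 8.98, 10.08 and 9.95 on the Cryaa-high arrays and 3.96, 5.80 and 3.70 on the Cryaa-low arrays. The difference was 5.21 (SE 0.91), at least 14.4-fold against the limit of 5.65, and a second, dimmer Gja3 probe set differed by 0.75. Mip, the water channel of the fibre membrane, read 7.63, 8.27 and 7.40 against 3.04, 3.64 and 3.33, a difference of 4.40 (SE 0.38), at least 4.22-fold, and its second probe set differed by 2.21. Lim2, another fibre membrane protein, differed by 2.17 (SE 0.50). Each of these 3 genes separated the groups, while the other 7 members tested, among them the adhesion molecules Cdh2 (0.62) and Nrcam (0.13), differed by less than 1. Aqp5, a water channel of lens and corneal epithelium, read 6.05, 6.91 and 6.74 against 9.12, 5.57 and 5.49. The groups overlapped through C57BL/6J replicate 1, the array with high Krt12, and on the other 5 the Cryaa-high arrays lay above the Cryaa-low arrays. Its difference was -1.29 within C57BL/6J and 1.34 within B6-Lystbg-J.

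The beaded filament is a cytoskeletal structure found in lens fibres. Its component Bfsp1 was 4.04 higher (SE 0.73; 10.38, 10.39 and 8.89 against 7.42, 6.26 and 5.10), or 16.4-fold, and the groups did not overlap. Its partner Bfsp2 was 0.85 higher (SE 0.35). Sptb, a spectrin of the membrane skeleton, was 1.19 higher (SE 0.28), though its second probe set differed by 0.36. Vim, an intermediate filament shared with many cells, was 0.47 higher, with overlapping groups.

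Among 7 tested genes of fibre maturation, 2 were at least 1 higher. Grifin, a galectin-related lens protein, read 9.19, 11.00 and 10.26 against 6.88, 6.56 and 5.85, a difference of 3.63 (SE 0.73), or 12.4-fold, without overlap. Dnase2b, the nuclease that degrades fibre cell DNA, read 6.71, 6.91 and 5.11 against 4.82, 4.44 and 4.73, a difference of 1.68 (SE 0.69), at least 1.63-fold. Dnase2b on B6-Lystbg-J replicate 3 was thus only slightly above the Cryaa-low arrays. Birc7 differed by 0.81, Tdrd7 by 0.48, Hmx1 by 0.42, Fyco1 by 0.02 and Chmp4b by -0.04.

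Of 15 tested transcription factors of lens development, 3 were at least 1 higher. Sox2, which acts early in lens induction, read 7.62, 8.81 and 8.80 against 4.91, 5.91 and 6.16, a difference of 2.43 (SE 0.38), or 5.39-fold. Prox1, needed for fibre differentiation, differed by 1.65 (SE 0.66; at least 1.35-fold), and Sox1, an activator of gamma-crystallin genes, by 1.49 (SE 0.49; at least 1.09-fold). The groups did not overlap for any of the 3. Tfap2a (0.99), Maf (0.94), Pitx3 (0.86) and Mab21l1 (0.74) were also higher without overlap, but by less than 1, although a second probe set differed by 1.05 for Mab21l1 and by 1.11 for Maf. Pax6 and Meis2, factors that the iris itself uses, differed by 0.04 and 0.21, and Foxe3, a factor of the lens epithelium, by 0.23, all with overlapping groups.

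The capsule list had 5 of 10 tested members at least 1 higher. Col4a1, a chain of basement membrane collagen, read 12.51, 13.04 and 13.07 against 10.97, 10.86 and 9.998, a difference of 2.33 (SE 0.42), or 5.03-fold. Its partner chain Col4a2 read 11.50, 12.43 and 12.45 against 10.07, 9.80 and 9.08, a difference of 2.47 (SE 0.53), or 5.54-fold. Both chains separated the groups and were lowest on B6-Lystbg-J replicate 2. Nid1, which links laminin to collagen, differed by 1.67 (SE 0.33), Col4a3 by 1.47 (SE 0.43) and Col4a4 by 1.36 (SE 0.45), whereas Hspg2, Lamc1 and Lamb2 differed by 0.09, 0.11 and -0.22.

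Of the 28 members at least 1 higher, 24 differed more within B6-Lystbg-J than within C57BL/6J. The 4 that differed more within C57BL/6J were Cryga, Crygb, Crygf and Dnase2b, with within-strain differences of 3.04, 3.58, 3.46 and 2.08 in C57BL/6J against 2.09, 3.22, 2.48 and 1.28 in B6-Lystbg-J. With C57BL/6J alone the lens median was 0.53 and with B6-Lystbg-J alone 0.98. Without B6-Lystbg-J replicate 2, where only C57BL/6J informs the difference, 22 of the 28 were still at least 1 higher, and Col4a3 (0.88), Prox1 (0.83), Crygn (0.76), Sptb (0.72), Col4a4 (0.68) and Sox1 (0.67) were not. Cryba1, Crygs and Col4a2 also moved by over 1.5 times without that array, to 1.47, 1.94 and 1.57. Without any other single array of the rule all 28 stayed at least 1 higher, and Sox1 alone moved by over 1.5 times, to 2.31 without C57BL/6J replicate 2.

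**Figure D2:**
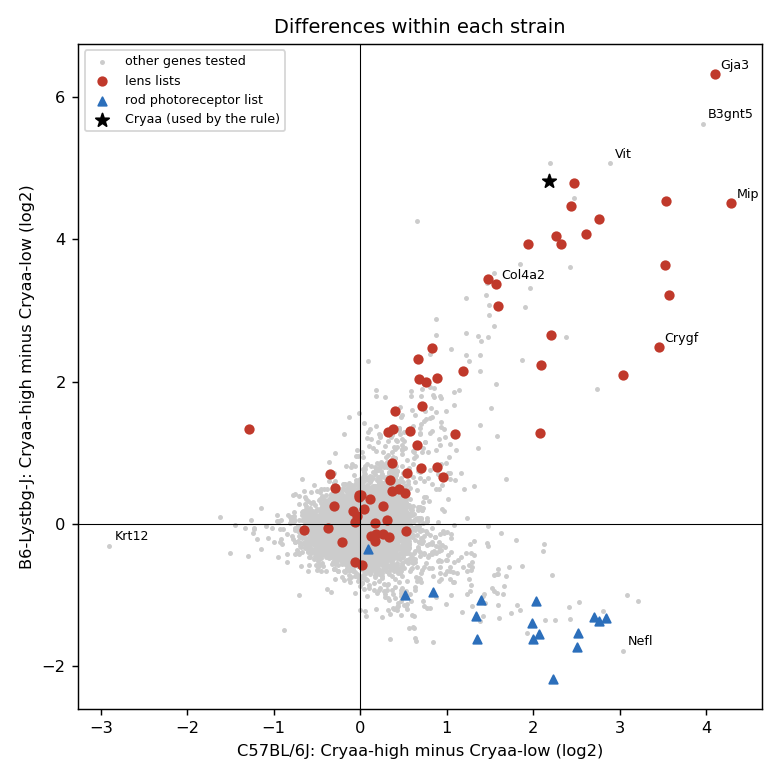
Cryaa-high minus Cryaa-low differences (log2) within C57BL/6J (x) and within B6-Lystbg-J (y) for each gene tested; red circles are lens list genes, blue triangles rod photoreceptor genes and the star Cryaa. Lens genes lie to the upper right, up to Gja3 at 4.10 and 6.32, while rod genes lie to the lower right, with medians of 2.01 and -1.35.

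The Cryaa-high arrays were not alike in their lens RNA. B6-Lystbg-J replicates 1 and 3 had Cryaa values 0.19 apart, yet Cryga was 3.92 higher on replicate 1 (9.11 against 5.19), Crygb 2.69, Crygf 2.59 and Crygd 2.56 higher. Some genes of the fibre lists, picked after their values were seen, were higher on replicate 1 as well: Dnase2b by 1.80, Bfsp1 by 1.498, Lim2 by 1.41, Birc7 by 1.32, Hspb1 by 1.30 and Ank2 by 1.28. Others of the same lists were not, among them Gja3 (0.13), Tdrd7 (0.06), Fyco1 (0.01) and Caprin2 (-0.22). Over the lists, the median of replicate 1 minus replicate 3 was 2.58 for gamma-crystallins, 0.66 for beta-crystallins, 0.61 for the fibre cytoskeleton, 0.32 for fibre maturation, 0.11 for fibre membrane and junctions, -0.02 for transcription factors and -0.02 for the capsule. None of the 10 capsule genes differed by 1 or more between these arrays, and Crygs, Crygn and Cryaa also differed by less than 1. In the other direction, Prox1 was 1.28 and Slc7a11, a cystine transporter, 1.13 lower on replicate 1 than on replicate 3 (differences of -1.28 and -1.13). Over all 68 tested lens members, 11 were at least 1 higher and 2 at least 1 lower on replicate 1, 55 differed by less than 1, and the median was 0.07. The shares over all genes tested were not computed for this contrast. Other measures differed between these arrays too. Rod photoreceptor genes had a median of -1.45, with 13 of 16 at least 1 lower on replicate 1, and the gaps between 3′ and 5′ control probe sets were 1.84 against 2.72 for actin and 1.85 against 3.24 for Gapdh. Their part in the lens values was not tested. These are values of 1 array against 1 array, without a test.

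Gamma-crystallins were also higher on an array that the rule did not use, together with beta-crystallins and several fibre list genes. On B6-(Cg)TyrC-2J replicate 3, relative to the mean of replicates 1 and 2, Dnase2b was 3.88 higher, Mip 3.84, Lim2 3.63, Cryga 3.50, Birc7 3.02 and Bfsp1 2.56. The medians were 1.74 for gamma-crystallins, 1.29 for fibre maturation, 1.23 for beta-crystallins, 0.58 for fibre membrane and junctions, 0.53 for the fibre cytoskeleton and -0.46 for the capsule, and Cryaa was 0.42 higher. Several fibre list genes were slightly lower, among them Chmp4b (-0.32), Efna5 (-0.17) and Hmx1 (-0.15). Lists with no tie to the lens had medians as low as that of the capsule, -0.60 for corneal epithelium, -0.49 for smooth muscle, -0.47 for pigment cells and -0.44 for macrophages. Rod and cone medians were 1.43 and 0.87, against -1.45 and -0.78 between the B6-Lystbg-J arrays, so the retinal markers of these contrasts ran in opposite directions. Their part in the lens values was not tested.

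**Figure D3:**
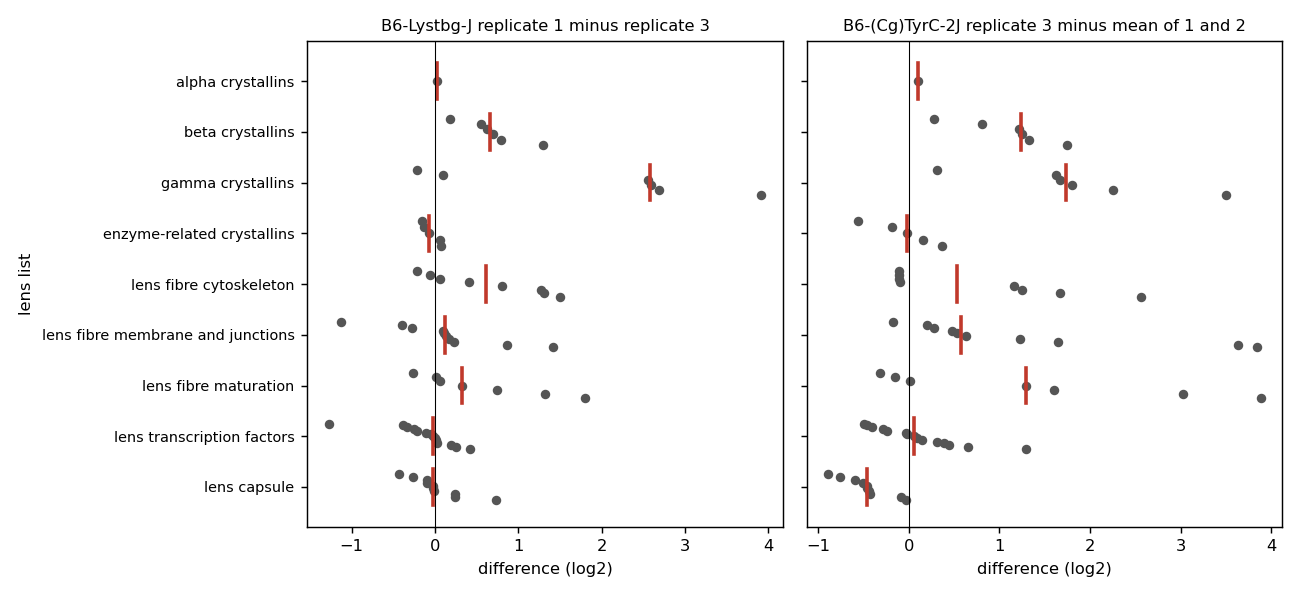
Differences (log2, x) of single lens genes (points) by list (y), with the list median as a red bar, for B6-Lystbg-J replicate 1 minus replicate 3 (left) and for B6-(Cg)TyrC-2J replicate 3 minus the mean of replicates 1 and 2 (right). Gamma-crystallins have medians of 2.58 and 1.74, and capsule genes -0.02 and -0.46.

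Genes outside the lens lists were also higher on the Cryaa-high arrays. Of the 109 genes other than Cryaa that were at least 1 higher, 28 stood on a lens list, 3 on a list of another tissue (Aldh3a1, Krt19 and Cd163) and 78 on no list. B3gnt5, a glycosyltransferase of glycosphingolipid synthesis, read 9.65, 10.32 and 10.50 against 4.44, 6.94 and 4.78, a difference of 4.79 (SE 1.01), at least 20.8-fold. Vit, an extracellular matrix protein, read 8.68, 9.69 and 9.13 against 5.02, 6.56 and 4.34, a difference of 3.98 (SE 0.86), at least 10.5-fold. Both separated the groups in the manner of Gja3, with C57BL/6J replicate 3 highest among the Cryaa-low arrays.

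Further large differences were those of the transcription factor gene Dmrta2 (3.64, SE 0.84) and the non-coding RNA gene Sox2ot (3.52, SE 0.65), in whose intron Sox2 lies. Sox2ot read 6.998, 8.58 and 8.58 against 4.23, 4.83 and 3.999, at least 4.39-fold. The secreted protease Adamts18 differed by 3.02, the calcium-binding protein Necab1 by 2.75, the surface glycoprotein Cd24a by 2.64, the matrix protein Spon2 by 2.54, Elmod1 by 2.51 and Npl, the lyase of sialic acid, by 2.48. All 10 of these named genes separated the groups, beside 4.34% of all genes. They were picked as the largest rises among genes with Cryaa-high above Cryaa-low within both strains, so their separation largely follows from that choice.

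Between the B6-Lystbg-J arrays of the Cryaa-high group, most of the split genes on no lens list differed little. Of the 81 genes at least 1 higher that were on no lens list, 79 differed by less than 1 between these arrays. On B6-Lystbg-J replicate 1, 0 were at least 1 higher and 2 at least 1 lower than on replicate 3. The share over all genes tested was not computed, so these counts are not read as particular to the 81 genes. All 19 macrophage, 15 stroma and 13 corneal epithelium genes tested also differed by less than 1. So did 3 of 16 rod, 4 of 5 cone and 11 of 14 inner retina genes. Over the 81 genes, replicate 1 minus replicate 3 ran from -2.02 to 0.73. Their median was -0.08 there and -0.53 on B6-(Cg)TyrC-2J replicate 3 against replicates 1 and 2, where lists with no tie to the lens had medians of similar size. No test of a difference from the lens lists was made. The 81 genes were chosen as high on the Cryaa-high arrays, but neither of these differences entered that choice directly.

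Few genes were lower. Besides Krt12 (-1.60, SE 2.45) and Dsp, both on the corneal epithelium list, 0 genes were at least 1 lower. Without C57BL/6J replicate 1 the Krt12 difference was -0.0040, and 6 genes were at least 1 lower. Without C57BL/6J replicate 3 the count was also 6, without B6-Lystbg-J replicate 2 it was 17 and without C57BL/6J replicate 2 it was 77. The 10 genes that were lower within both strains by the most ran from Gbp3 at -0.87 to Sh3d19 at -0.60. Of these, Gbp3, Gbp7, Cmpk2 and Nlrc5 are interferon-induced genes, and of the 6 arrays of the rule each was highest on C57BL/6J replicate 3, the array with the widest actin gap. Gbp3, for example, read 7.29, 7.47 and 7.36 on the Cryaa-high arrays against 7.83, 9.34 and 7.87, and without that array its difference was -0.49. The part of that array's RNA quality in these values was not tested. The remaining 6, with differences of -0.70 to -0.60, were Plac8, the muscle M-band gene Myom2, the death receptor gene Tnfrsf21, the methyltransferase gene Bhmt, the epimerase gene Dse and Sh3d19. Of these, Plac8, Myom2 and Dse were also highest on C57BL/6J replicate 3, at 7.60, 7.32 and 7.54, so that trait was not confined to the interferon-induced genes. Bhmt and Sh3d19 were highest on C57BL/6J replicate 1, and Tnfrsf21 on B6-Lystbg-J replicate 2.

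Retinal markers did not follow Cryaa in both strains. The 16 rod photoreceptor genes tested averaged 9.19 on the Cryaa-high and 7.37 on the Cryaa-low arrays of C57BL/6J, but 8.39 and 9.72 on those of B6-Lystbg-J, differences of 1.82 and -1.33. Summed over the list on the linear scale, the log2 rod level was 12.34 to 13.79 on Cryaa-high and 12.24 to 14.26 on Cryaa-low arrays, and on the arrays outside the rule it was 12.67 to 14.74. Cnga1, the rod cation channel, read 9.63, 7.21 and 9.32 against 6.66, 7.19 and 9.58. The groups overlapped, and B6-Lystbg-J replicate 2 was the array lowest in Cryaa and, of these 6, highest in the rod list mean. None of the 16 was at least 1 higher or lower over both strains. Of the 168 tested genes on the lists of other tissues, 4 had all Cryaa-high arrays above all Cryaa-low arrays, beside 4.34% of all genes. On the opposite side, 5 had all Cryaa-high arrays below all Cryaa-low arrays, beside 3.8%. The 4 were the corneal list genes Krt19 and Cdh1, the early response gene Btg2, and Msx1, a homeobox gene on the ciliary epithelium list. Msx1 differed by 0.89 (SE 0.29), with 0.45 in C57BL/6J and 1.32 in B6-Lystbg-J.

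Corneal epithelium markers, 13 tested, had 2 members at least 1 higher and 2 at least 1 lower. Aldh3a1, an abundant enzyme of corneal epithelium, read 10.28, 11.69 and 10.97 against 12.06, 7.18 and 7.07, a difference of 2.46 (SE 2.03). The groups overlapped because C57BL/6J replicate 1, the array with high Krt12, was also highest for Aldh3a1, and the difference was 3.76 without that array and 0.66 without B6-Lystbg-J replicate 2. Krt19, a keratin of simple and ocular surface epithelia, differed by 1.88 (SE 0.59; at least 2.39-fold) without overlap. The log2 summed corneal level was 13.64 to 13.95 on Cryaa-high and 13.03 to 14.75 on Cryaa-low arrays, and the defining marker Krt12 was not above 6.66 on any Cryaa-high array. The part of corneal RNA in the lens differences was not tested.

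Markers of the iris itself differed little. All 14 tested pigment cell genes, all 14 smooth muscle genes and all 14 vascular endothelial genes were lower on the Cryaa-high arrays, beside 7464 of all 13190 genes. Their medians were -0.18, -0.21 and -0.11, against -0.03 for all genes. The strains differed in size: medians were -0.0074 in C57BL/6J and -0.34 in B6-Lystbg-J for pigment cells. They were -0.31 and -0.09 for smooth muscle, and -0.32 and -0.11 for endothelium, in the same order. The summed pigment cell level on the log2 scale was 15.88 to 16.12 on Cryaa-high and 15.72 to 16.51 on Cryaa-low arrays, so the groups overlapped. The myosin kinase gene Mylk, at 12.78, 12.43 and 12.46 against 13.08, 12.83 and 12.80, was the smooth muscle gene of the 14 that separated the groups, by -0.26 (SE 0.10). Stroma (median -0.21), macrophage (-0.06) and Schwann cell lists (-0.13) had no member at least 1 lower.

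**Figure D4:**
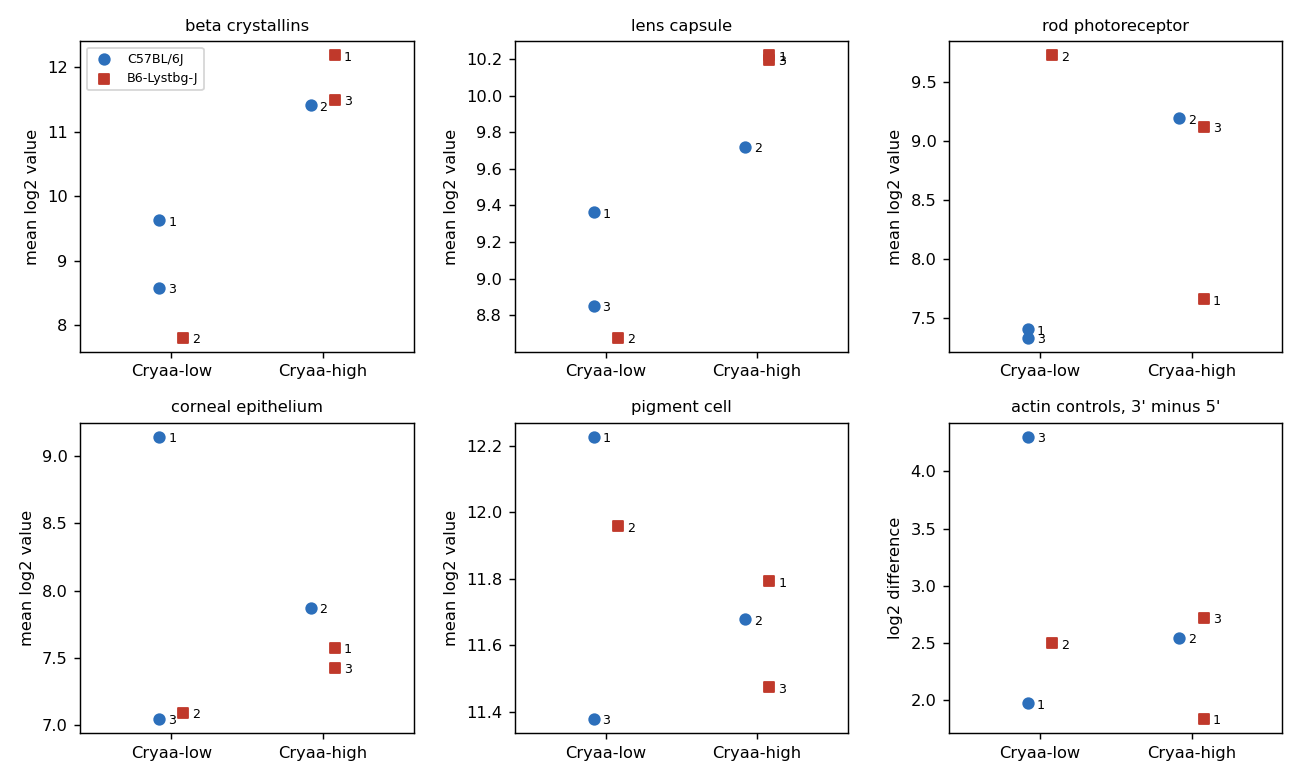
Mean log2 value of 5 marker lists and the gap between 3′ and 5′ actin control probe sets (log2, y) on the Cryaa-low and Cryaa-high arrays (x); each point is 1 array with its replicate number, circles C57BL/6J and squares B6-Lystbg-J. Beta-crystallin and capsule means separate the groups, at 11.41 to 12.19 against 7.80 to 9.62 and 9.72 to 10.22 against 8.68 to 9.36, whereas the means of the other lists and the actin gap overlap.

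The 6 arrays outside the rule allowed a test of whether other transcripts follow Cryaa. Each probe set was fitted on strain and the Cryaa value in the 3 B6-(Cg)TyrC-2J and 3 B6.D2(Tryp1-Gpnmb-)/SJ arrays, and the slope is the change in log2 units per unit of Cryaa. No probe set passed: limma called 0 of 27021 (0%), with a smallest adjusted p of 0.561, while 566 (2.09%) had an unadjusted p under 0.05, 296 (1.1%) with a positive slope. With the replicate number as a block, which left few degrees of freedom, limma called 31 probe sets, and with the mean of fibre genes in place of Cryaa it called 2. Cryaa ranged over only 12.95 to 14.22 on these arrays.

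Within that limit, slopes of the lens genes leaned upward. Of the 68 tested members, 60 had a positive slope, with a median of 0.42 against 0.01 over all genes, and 17 (25%) had an unadjusted p under 0.05, beside 1.91% of 13189 genes. The slope was positive for 16 of the 17, beside 1.06% of genes with a positive slope at that p. The filter on low values used the mean over all 12 arrays. For 5 members, Dnase2b, Lama1, Mip, Prox1 and Sox1, the mean over the 6 arrays of the rule lay below 5.65. Without those 5, 55 of 63 members had a positive slope and 15 an unadjusted p under 0.05. With the replicate number as a block, 8 members had an unadjusted p under 0.05. All 6 beta-crystallins were among the 17 without that block. Cryba2 had the steepest slope of these 6, 2.46 (SE 0.23; limma adjusted p = 0.561, the smallest of all probe sets), and read 11.87, 11.10 and 12.80 on replicates 1, 2 and 3 of B6-(Cg)TyrC-2J and 10.04, 11.43 and 12.40 on those of B6.D2(Tryp1-Gpnmb-)/SJ. It thus kept the order of Cryaa within each strain. Crygn had a slope of 2.19 (SE 0.37), Crybb3 1.78 (SE 0.31), Crybb2 1.67 (SE 0.24), Gja3 1.14 (SE 0.30) and Crygs 0.80 (SE 0.17), each with a limma adjusted p of 1.00. Slopes of the capsule chains were small against their errors, 0.25 (SE 0.31) for Col4a1 and 0.22 (SE 0.46) for Col4a2. Crygf, at 0.56 (SE 1.04), also had an error larger than its slope.

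Genes at least 1 higher in the split were followed into these arrays. Their differences were not chosen on these arrays, but the filter on low values and the choice of probe set used the mean over all 12: for 8 of the 109, among them Mip, Dnase2b, Prox1 and Sox1, the mean over the 6 arrays of the rule lay below 5.65. Of the 109, 99 (90.8%) had a positive slope, against 52.2% of all genes, and 20 (18.3%) had an unadjusted p under 0.05, all with a positive slope. Without those 8, 93 of 101 had a positive slope and 19 an unadjusted p under 0.05. For the 81 that were on no lens list, 71 (87.7%) had a positive slope and 8 (9.88%) an unadjusted p under 0.05. B3gnt5 had a slope of 1.13 (SE 0.33), Cd24a 1.64 (SE 0.58) and Spag5 1.15 (SE 0.23), while Vit (0.23, SE 0.39) and Elmod1 (0.07, SE 0.44) had slopes within their errors. Of the 109 genes, 103 were higher on all 6 arrays outside the rule than on all 3 Cryaa-low arrays, beside 4.81% of all genes; the Cryaa-low values entered the choice of these genes.

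Slopes in the other direction were found for Sh3d19 (-1.59, SE 0.28) and for Sox11, a transcription factor of neural and mesenchymal cells (-1.09, SE 0.22). Sh3d19 was also lower on the Cryaa-high arrays, by 0.60 (a difference of -0.60). Further negative slopes with small p belonged to Gpr37 (-0.96), Bmp5 (-0.79), Gpr50 (-0.77), Foxd3 (-0.72), Epha3 (-0.69) and Ttc26 (-0.63), and further positive ones outside the lens lists to Hes5 (1.21) and Lrrc75b (0.93). None passed adjustment over all probe sets.

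**Figure D5:**
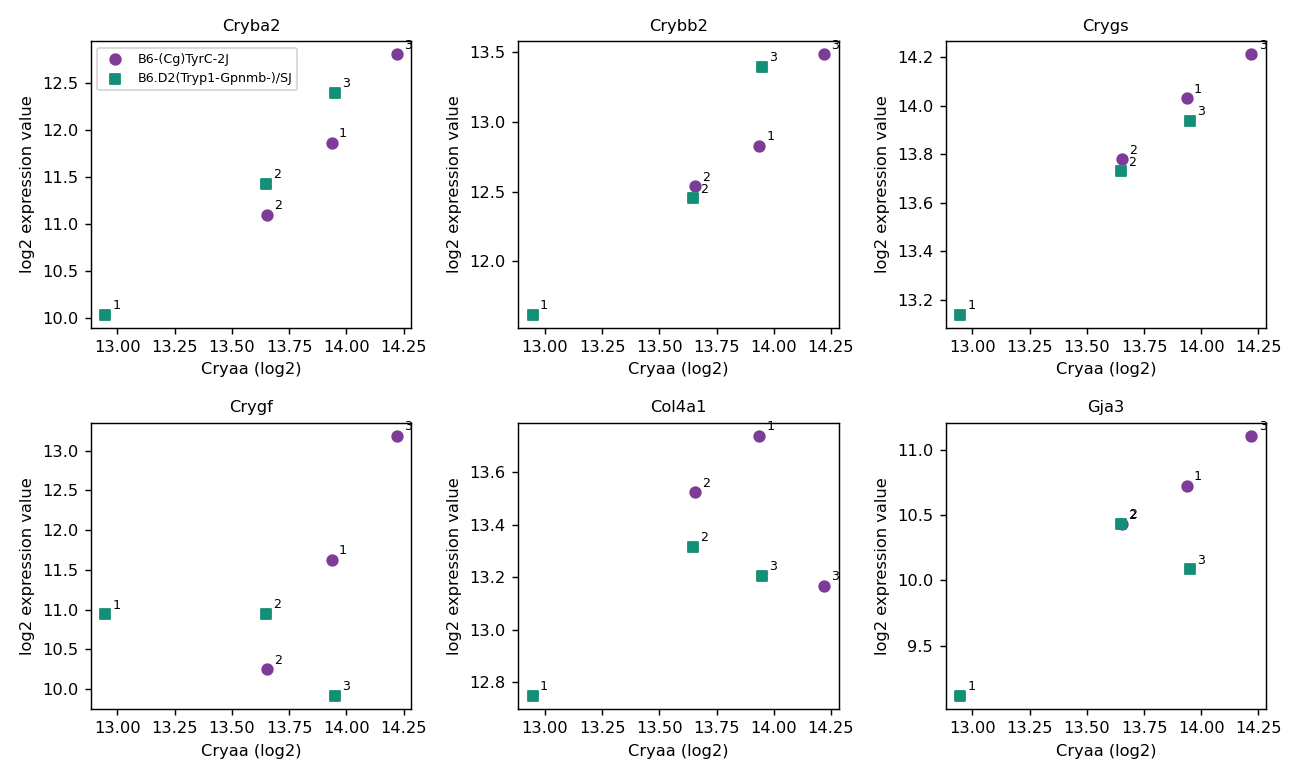
Log2 expression values (y) of 6 lens genes against the Cryaa value (x) on the 6 arrays that the rule did not use; circles are B6-(Cg)TyrC-2J, squares B6.D2(Tryp1-Gpnmb-)/SJ, and numbers are replicates. Cryba2, Crybb2 and Crygs keep the order of Cryaa within each strain, whereas Crygf reads 9.92 on the B6.D2(Tryp1-Gpnmb-)/SJ array with the highest Cryaa value.

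A last question was whether lens transcripts differed by strain. Over all 12 arrays, limma's F test for any strain difference called 565 of 27022 probe sets (2.09%) and 299 of 13190 genes (2.27%), but 0 of the 68 lens members, of which 30 had an unadjusted p under 0.05, beside 21.8% of genes. The smallest adjusted p among lens members was 0.086 (limma), for Crygn. Cryaa itself had a limma adjusted p of 0.274. Without B6-Lystbg-J replicate 2, 3 lens members were called, and without B6-Lystbg-J replicate 1, 1 was.

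Between B6-Lystbg-J and C57BL/6J alone, the strain term was fitted with and without the split. Limma called 140 of 27022 probe sets (0.518%) with the split in the model and 280 (1.04%) without it, and 139 probe sets were called both ways. None of the 68 lens members was called in the model with the split. There 4 had an unadjusted p under 0.05, beside 1321 of all 13190 genes and 11.3% of probe sets. With the replicate number as a block, limma called 554 probe sets and 2 lens members. The count with the split fell to 9 without B6-Lystbg-J replicate 2 and to 13 without C57BL/6J replicate 2, each of which was the lone array of its strain in its group.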

How the data were processed

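Irides of 4 mouse strains were measured on 12 Affymetrix arrays. Values deposited by the authors are on a log2 scale, as read from their range, 1 for each probe set on each array. The sources used here do not give how they were background-corrected, normalized and summarised, and no further scaling was applied. The 64 control probe sets were left out. A single gene symbol was assigned to 34945 of the remaining 45037, several to 932 and none to 9160, and 34741 were found in RefSeq (GRCm38.p6). Probe sets with a mean over all arrays at or above the 40th percentile, 5.65, were tested (27022), and the one with the highest mean stood for its gene (13190 genes).

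Models were fitted with limma 3.58.1 in R 4.3.3 (intensity trend, two-sided, Benjamini-Hochberg over all tested probe sets, threshold 0.05) and were tested on simulated data. The split was estimated with strain as a block and was not tested, since Cryaa chose it. The members, the 9 lens lists and the 15 lists of other tissues were chosen with earlier results of these data known. The genes named are the lens members, the 10 largest differences in each direction within both strains, up to 3 members of each other list, and the 8 smallest p of each sign in the arrays outside the rule. Dsp, Cdh1 and the contrasts between single arrays were picked after their values were seen. Alternatives were the scaling, the filter, the probe set of a gene, the blocks, single strains and each array left out. Replicate numbers were not taken as pairs in the main fits. Over 18 pairs with the same number, correlations of deviations from the strain means ran from -0.43 to 0.39. Over 36 pairs with unlike numbers they ran from -0.49 to 0.53. Deviations of 3 arrays from their own mean are not independent, so these ranges cannot exclude shared handling by number.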

Additional observations from a re-analysis of the deposited data

Results flagged for a closer look

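Several markers of tissues next to the iris had opposite signs of the difference between Cryaa-high and Cryaa-low arrays in the 2 strains: in C57BL/6J the Cryaa-high array lay above both Cryaa-low arrays, and in B6-Lystbg-J both Cryaa-high arrays lay below the Cryaa-low array. The difference between the strains was not tested, and it rests on 3 arrays a strain. List means were 1.82 in C57BL/6J against -1.33 in B6-Lystbg-J for rod photoreceptors, 0.85 against -0.68 for cone photoreceptors, 0.77 against -0.60 for the inner retina, 0.58 against -0.52 for the retinal pigment epithelium and 0.26 against -0.50 for the ciliary epithelium. Among single genes, the neurofilament gene Nefl had 3.04 against -1.78, the rod genes Pde6b and Cnga1 2.76 against -1.37 and 2.70 against -1.31, and the cone genes Pde6h and Opn1mw 1.09 against -0.82 and 0.63 against -0.89. Rgr and Rpe65 of the retinal pigment epithelium had 1.55 against -0.94 and 1.26 against -0.77, and Otx2, on the same list, 0.14 against -0.63. Col9a1 and Optc of the ciliary epithelium had 0.57 against -1.46 and 0.29 against -1.03, and the stromal proteoglycan gene Fmod 0.43 against -1.11. Their part in the lens differences was not tested.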

How the results depend on the processing

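Named genes that differed by at least 1 in the split kept their sign under every alternative run. For Krt12 this holds in name only, since its difference was -0.0040 without C57BL/6J replicate 1. The count of genes at least 1 higher (110) was 168 with B6-Lystbg-J alone and 106 to 168 with 1 array left out. The lens median (0.81) was 0.53 with C57BL/6J alone and 0.53 to 0.98 with 1 array left out, and lens members at least 1 higher (28) ranged from 22 to 34. Genes at least 1 lower (2) were 8 without the strain block, 17 with C57BL/6J alone and 77 with B6-Lystbg-J alone (3 to 77 with 1 array left out), and members of other lists past 1 in either direction (5) were 15, 26 and 26 (4 to 26). Calls in the arrays outside the rule (0) were 2 with the fibre gene mean, both positive, and 31 with the replicate block, 30 positive, with lens members at an unadjusted p under 0.05 (17) then 8; with 1 array left out, calls stayed 0 and that lens count was 14 to 24. The strain F test (565) called 347 with the 60th percentile filter and 260 to 636 with 1 array left out, with 0 to 3 lens members. The strain term beside the split (140) called 65 with that filter, 554 with the replicate block and 280 without the split term, and 9 to 204 with 1 array left out; its lens calls (0) were 2 with the replicate block and 0 to 1 with 1 array left out. The replicate block leaves the split differences as they are, since at each replicate number the C57BL/6J and B6-Lystbg-J arrays fell in opposite groups. For these differences that setting was no check, as it could not change them. The causes were not tested, apart from fewer probe sets or arrays in the respective fits.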

Other observations

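Among genes outside the lens and its neighbours, Btg2, an immediate early gene, was 0.61 higher on the Cryaa-high arrays (SE 0.05), reading 7.11, 7.44 and 7.44 against 6.53, 6.40 and 6.85, so that the groups did not overlap. Atf3, another immediate early gene, read 8.25 to 8.68 on the B6-Lystbg-J arrays and 5.55 to 6.32 on the C57BL/6J arrays whatever the Cryaa value, and its limma adjusted p in the strain F test was 7.41e-06. Cd163, a scavenger receptor of tissue macrophages, was 1.03 higher on the Cryaa-high arrays (SE 0.43), with the groups overlapping and 1 array, B6-Lystbg-J replicate 2, at 3.83 against 5.59 to 6.30 on the other 5. The chemokine gene Pf4 was likewise lowest on that array, at 6.84 against 8.03 to 8.35.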
